A study of Saccharomyces cerevisiae with 9 samples.

Results

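The genes described here are the IZH family of membrane proteins (IZH1, IZH2, IZH3 and IZH4) and 5 central genes of zinc homeostasis (ZRT1, ZRT2, ZRT3, ZRC1 and ZAP1) in the yeast Saccharomyces cerevisiae, during recovery from freezing. They were chosen by gene symbol, with earlier results of these data in view: the low ratios of IZH2 and IZH4 at 60 min after thawing led to the choice. All 9 were found among the 5189 genes that both array platforms carry, each with 1 probe per platform. Values at 60 min are therefore given as a description, without a test of the members. Those at 15 and 30 min come from other arrays and were tested. The fit took each gene's spread from all 9 arrays, so the 60 min values entered the SEs and p-values of those tests. In these bulk samples a lower level per cell and a smaller share of cells that hold the transcript cannot be told apart.

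Cells of strain S288C, a laboratory strain, were grown in rich medium (YPD) at 30 °C to exponential phase, and RNA was taken at 15, 30 or 60 min after complete thawing, with 3 arrays per time point from cultures that the series calls independent. Those cells had been frozen at -80 °C with no cryoprotectant, stored for 1 week, and thawed in a water bath at 30 °C for 25 min. The cells they were compared with came from an aliquot of such a culture that was never frozen. The volumes given are 600 ml of culture, 400 ml frozen, 200 ml of control and 100 ml sampled. Each array was hybridised with Cy5-labelled cDNA of the recovering cells and Cy3-labelled cDNA of the cells before freezing, and each value is the log2 ratio of the 2 channels.

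A positive value was taken to mean more RNA in recovering cells, as the array titles give the recovering sample. The tables do not state it, and every sign here would turn in the other case. No array had the dyes swapped, so a difference between dyes cannot be told apart from a difference between the samples. Replicate 1 of each time point was on the first platform and replicates 2 and 3 were on the second. Arrays had a value for 2765 to 5772 of 6272 spots, and all 36 correlations between arrays across genes were positive (0.09 to 0.70). IZH1, IZH2, IZH3, IZH4, ZRT1, ZRT2 and ZRT3 had a value on all 9 arrays, ZRC1 on 8, and ZAP1 on 3, those of replicate 3.

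Zinc is a cofactor of many enzymes and transcription factors, and yeast keeps its level steady by adjusting transporters in the plasma membrane and the vacuole. When zinc is scarce, the activator Zap1 raises transcription of the uptake genes, of its own gene and of IZH1 and IZH2, while excess zinc is moved into the vacuole. The IZH proteins are multi-pass membrane proteins of the PAQR family, related to the adiponectin and progestin receptors of animals, and their genes are known to respond to zinc and, for several of them, to fatty acids.

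Within the IZH family, IZH2 and IZH4 were far below their level before freezing at 60 min, IZH1 was mixed between arrays and IZH3 was near it. Among the zinc transporters, ZRT2 and ZRT3 were above 0 on every array at 60 min and ZRT1 was below 0 on every array. At 15 and 30 min none of the 8 members with 3 values passed the test.

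**Figure D1:**
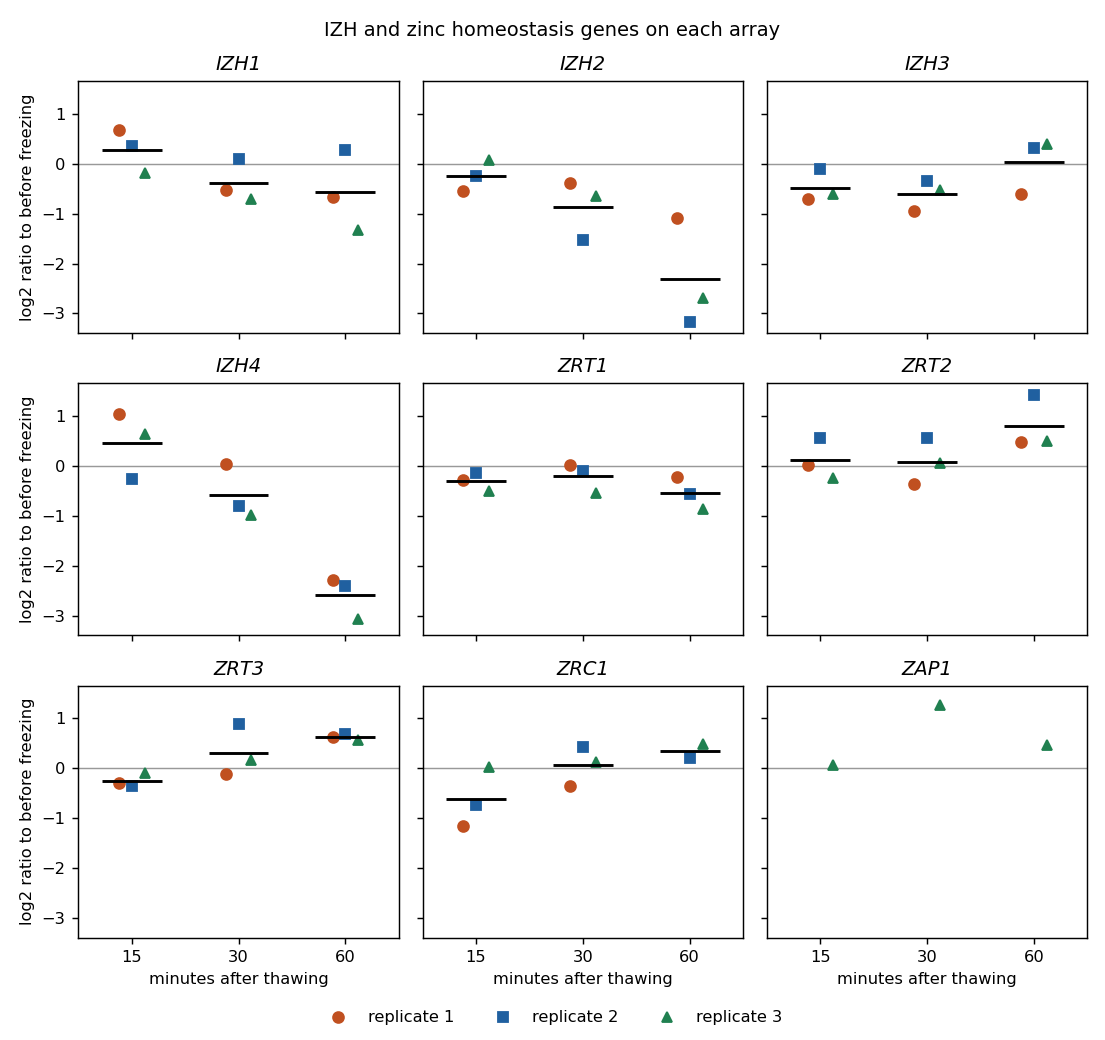
Each panel plots 1 gene, with minutes after thawing on the horizontal axis and the log2 ratio to cells before freezing on the vertical axis; each point is 1 array, marked by replicate, and bars are means of the arrays with a value (drawn from 2 values up). IZH2 and IZH4 lie between -1.10 and -3.16 at 60 min on every array, ZRT2 and ZRT3 lie above 0 there, and ZAP1 has a value on replicate 3 alone.

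IZH4 (YOL101C), an IZH protein whose expression is known to be induced by fatty acids and altered by zinc, had the lowest mean of the 9 at 60 min. Its log2 ratios were 1.03, -0.27 and 0.64 at 15 min (replicates 1, 2 and 3). They were 0.03, -0.81 and -0.98 at 30 min, then -2.29, -2.41 and -3.06 at 60 min. At 15 min 2 of the 3 arrays were above 0. The 3 arrays at 60 min lay below the 6 earlier ones, a description only, since those values led to the choice of the gene. The mean at 60 min was -2.59 ± 0.41 (SD, n = 3), 6.01-fold lower than before freezing, and was the 3rd lowest of the 2952 genes with 3 values. On the single arrays at 60 min it ranked 41st, 8th and 2nd from the lowest of 3636, 4008 and 4624 genes. Leaving out each of those arrays in turn gave means between -2.35 and -2.74.

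At the earlier times IZH4 did not pass in limma. Its mean was 0.47 ± 0.30 at 15 min (SE, adjusted p = 0.447) and -0.59 ± 0.30 at 30 min (SE, adjusted p = 0.297). The difference of 30 min from 15 min was -1.06 ± 0.43, with an unadjusted p of 0.0192 and an adjusted p of 0.972. With array weights, which count noisier arrays less, the value at 30 min was -0.80 and passed (adjusted p = 0.0086). In that setting 656 of all 3320 genes passed at 30 min, where 144 did in the fit reported. Under the other 10 alternatives IZH4 did not pass at 30 min, and over all 11 the adjusted p lay between 0.0086 and 0.758.

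IZH2 (YOL002C) encodes the family member best known as the receptor of osmotin, a plant antifungal protein, and is a direct target of Zap1. It was at -0.54, -0.25 and 0.07 at 15 min. At 30 min it was at -0.39, -1.53 and -0.65, and at 60 min at -1.10, -3.16 and -2.69. All 6 arrays from 30 min on were below 0, and the array of the first platform at 60 min lay above the other two and inside the range seen at 30 min. The mean at 60 min was -2.31 ± 1.08 (SD, n = 3), or 4.98-fold lower than before freezing, the 9th lowest of 2952. Without replicate 1 it was -2.92 and without replicate 2 it was -1.89.

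IZH2 at 30 min was 1.81-fold lower, which did not pass in limma (-0.86 ± 0.33, SE, n = 3, unadjusted p = 0.0138, adjusted p = 0.132). It passed with array weights (-0.74, adjusted p = 0.0191) and when the 3 arrays at 30 min were fitted alone (-0.86, adjusted p = 0.0444). In those settings 656 and 313 of all 3320 genes passed, where 144 did in the fit reported. IZH2 did not pass when any single array at 30 min was left out, and the adjusted p over all alternatives lay between 0.0191 and 0.628. At 15 min it was at -0.24 ± 0.33 (SE, adjusted p = 0.755).

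IZH1 (YDR492W), another direct target of Zap1, differed in sign between arrays at every time. The ratios were 0.68, 0.35 and -0.20 at 15 min. They were -0.53, 0.09 and -0.71 at 30 min, then -0.67, 0.27 and -1.33 at 60 min. Its mean at 60 min was -0.58 ± 0.80 (SD, n = 3), a spread larger than the mean. It did not pass at 15 min (0.28 ± 0.30, SE, adjusted p = 0.693) or 30 min (-0.38 ± 0.30, SE, adjusted p = 0.549).

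IZH3 (YLR023C), a further member whose expression is known to rise in zinc deficiency, was below 0 on all 6 arrays of the first 30 min and near 0 on average at 60 min. It was at -0.72, -0.11 and -0.61 at 15 min and at -0.95, -0.35 and -0.52 at 30 min. At 60 min it was at -0.60 on the first platform and at 0.31 and 0.40 on the second, so the platforms lay on opposite sides of 0. The means were -0.48 ± 0.28 at 15 min (SE, adjusted p = 0.405) and -0.61 ± 0.28 at 30 min (SE, unadjusted p = 0.0423, adjusted p = 0.252), and neither passed in limma. With array weights the value at 30 min was -0.56 and passed (adjusted p = 0.0488), in a range over all alternatives of 0.0488 to 0.693. With those weights 656 of all 3320 genes passed.

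Read within each array, the family had drawn apart by 60 min. The mean of IZH2 and IZH4 minus that of IZH1 and IZH3 was 0.26, -0.38 and 0.76 at 15 min and 0.56, -1.04 and -0.20 at 30 min. At 60 min it was -1.06, -3.08 and -2.41. The sign was mixed at both earlier times and negative on every array at 60 min, least so on the first platform. Since the pair was chosen on its low values at 60 min, this difference is a description.

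ZRT1 (YGL255W) is the high-affinity zinc uptake transporter of the plasma membrane and a main target of Zap1. On average it was 1.24-, 1.16- and 1.46-fold lower than before freezing at 15, 30 and 60 min. It was at -0.28, -0.13 and -0.50 at 15 min. At 30 min it was at 0.02, -0.10 and -0.55, and at 60 min at -0.21, -0.57 and -0.85. Of the 9 arrays 8 were below 0, and the ranges of the 3 time points overlapped. The mean was -0.30 ± 0.27 at 15 min (SE, adjusted p = 0.588), -0.21 ± 0.27 at 30 min (SE, adjusted p = 0.761) and -0.54 ± 0.32 at 60 min (SD, n = 3).

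ZRT2 (YLR130C), the low-affinity uptake transporter, which Zap1 activates in mild and represses in severe zinc deficiency, was on both sides of 0 until 30 min. It was at 0.02, 0.56 and -0.24 at 15 min and at -0.37, 0.55 and 0.05 at 30 min. At 60 min it was at 0.48, 1.42 and 0.49, all above 0, with the other two arrays below replicate 2. The mean at 60 min was 0.80 ± 0.54 (SD, n = 3), 1.74-fold higher than before freezing, and it was 0.49 without replicate 2. Means at 15 and 30 min were 0.11 ± 0.29 and 0.08 ± 0.29 (SE, adjusted p = 0.882 and 0.922). ZRT2 minus ZRT1 on the same array was 0.30, 0.70 and 0.26 at 15 min. It was -0.39, 0.65 and 0.60 at 30 min, then 0.70, 1.99 and 1.34 at 60 min, so ZRT2 was the higher on 8 of 9 arrays.

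ZRT3 (YKL175W), which releases zinc from the vacuole, showed the closest agreement between arrays at 60 min. Its ratios were -0.30, -0.35 and -0.10 at 15 min. They were -0.11, 0.88 and 0.16 at 30 min, then 0.63, 0.69 and 0.56 at 60 min. All 3 arrays were below 0 at 15 min and all 3 above 0 at 60 min. The mean at 60 min was 0.62 ± 0.067 (SD, n = 3), 1.54-fold higher than before freezing. At 15 and 30 min the means were -0.25 ± 0.28 and 0.31 ± 0.28 (SE, adjusted p = 0.686 and 0.606).

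ZRC1 (YMR243C), which carries zinc into the vacuole, was at -1.15, -0.74 and 0.02 at 15 min and at -0.36, 0.42 and 0.13 at 30 min. At 60 min it had no value on replicate 1 and was at 0.21 and 0.49 on replicates 2 and 3. The mean at 15 min, -0.63 ± 0.29 (SE, n = 3), was 1.54-fold lower and had an unadjusted p of 0.0404 and an adjusted p of 0.261. The 15 min arrays spread from the lowest value of this gene to near 0. At 30 min it was at 0.06 ± 0.29 (SE, adjusted p = 0.937).

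ZAP1 (YJL056C), the zinc-responsive activator that also controls its own gene, had 1 value per time point, each on replicate 3. These were 0.06 at 15 min, 1.27 at 30 min and 0.46 at 60 min. They have no replicate, and ZAP1 was not tested.

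Set against all genes, limma called 0 of the 8 members tested at 15 min (1 had an unadjusted p under 0.05), where 1.16% of 2148 genes passed. At 30 min 0 of 8 passed (2 at an unadjusted p under 0.05), where 4.34% of 3320 passed. Between 30 and 15 min limma called 0 of 8 (IZH4 had an unadjusted p under 0.05) and 0 of all 1853 genes tested (0.0%), of which 52 had an unadjusted p under 0.05.

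Counting arrays on 1 side of 0 gave a similar view. At 15 min 3 of 8 members (IZH3, ZRT1 and ZRT3) were below 0 on all 3 arrays, as were 20.8% of all genes, and 0 were above on all 3 (15.1% of all genes). At 30 min 2 (IZH2 and IZH3) were below (25.5% of all genes) and 0 above (19.3%). At 60 min, where the choice of genes used the values and the counts are only a description, 3 of the 7 with 3 values (IZH2, IZH4 and ZRT1) were below (32.6%) and 2 (ZRT2 and ZRT3) above (26.8%). The median of the member means was -0.25, -0.30 and -0.54 at 15, 30 and 60 min, and that of all genes tested was -0.05, -0.08 and -0.06.

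**Figure D2:**
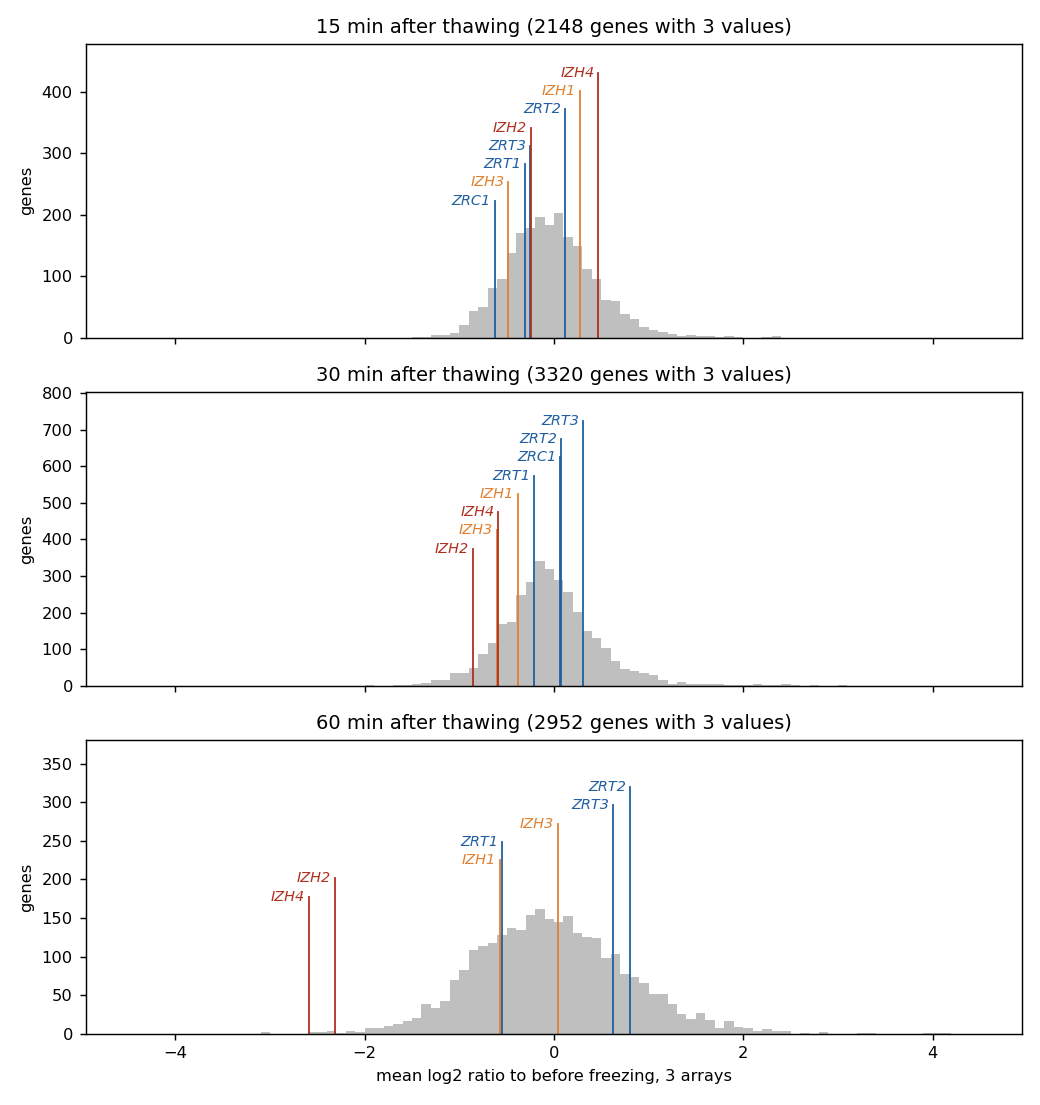
Grey bars count all genes with 3 values by their mean log2 ratio to cells before freezing (horizontal axis), in 1 panel per time point; vertical lines mark the members with 3 values, IZH2 and IZH4 in red, the other IZH genes in orange and transporters in blue. The members lie within the bulk of genes at 15 min, and IZH4 (-2.59) and IZH2 (-2.31) lie in the lower tail at 60 min.

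In the order of means at 60 min, IZH4 and IZH2 came first, and their ranges over the arrays overlapped. The range of IZH2 (-3.16 to -1.10) also overlapped that of IZH1 (-1.33 to 0.27), while every array of IZH4 lay below those of IZH1. IZH1 (-0.58), ZRT1 (-0.54) and IZH3 (0.04) followed, with ranges that overlapped each other. ZRT3 (0.62) and ZRT2 (0.80) were highest, and their ranges overlapped too, while both lay above every array of ZRT1. ZRC1, with 2 values, averaged 0.35.

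Of the 1656 other genes with a value on all 9 arrays, those nearest to IZH2 by root mean square difference over the 9 log2 ratios were DIA1 (0.58), EFM6 (0.60), a protein methyltransferase, and YMC2 (0.65), a mitochondrial carrier. The median gene was at 1.61. DIA1 was at -1.80, -3.63 and -1.54 at 60 min. IZH4 was 17th on that list, at 0.80. Nearest to IZH4 were FAA4 (0.61), a long-chain fatty acyl-CoA synthetase, ALD5 (0.68), a mitochondrial aldehyde dehydrogenase, and HHT2 (0.72), a histone H3 gene whose near-identical copy HHT1 may share its probe's signal. The median gene was at 1.68. FAA4 was at 0.71, -0.31 and 0.33 at 15 min. At 30 min it was at 0.01, -0.30 and -0.80, and at 60 min at -0.91, -2.09 and -2.14. IZH2 was 9th on that list. These distances are a description over 9 arrays that share the 60 min values on which the pair was chosen.

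**Figure D3:**
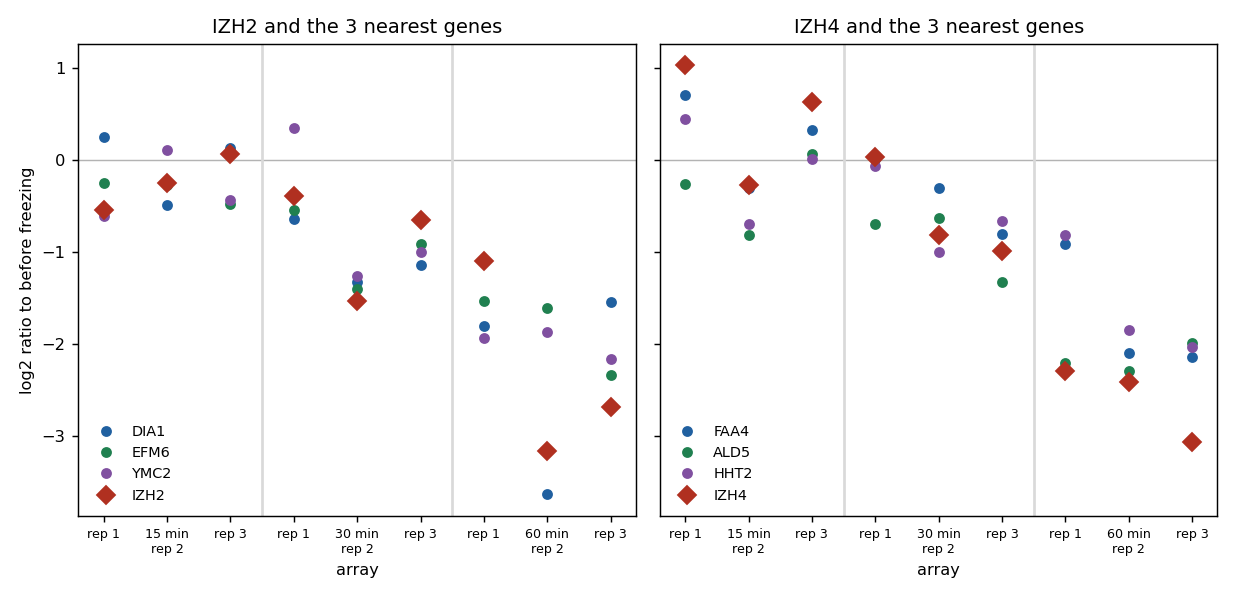
The left panel shows IZH2 and the right panel IZH4 (red diamonds) with the 3 genes of the smallest root mean square difference (circles); the horizontal axis lists the 9 arrays by time and replicate, and the vertical axis is the log2 ratio to cells before freezing. On the 60 min arrays all 8 genes shown are below 0, between -0.81 and -3.63.

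A list of 8 genes of fatty acid and low-oxygen regulation that are tied to IZH genes in the literature had 7 on the arrays, of which 1, 6 and 2 were tested at 15, 30 and 60 min. In limma 0, 0 and 1 of these passed. The 1 was OLE1, lower at 60 min, where 17.5% of all genes were. OLE1, the fatty acid desaturase that the membrane-bound activators Mga2 and Spt23 control, fell at 60 min. It was at 0.46, 0.35 and 0.01 at 15 min. At 30 min it was at 2.48, -0.41 and -0.04, and at 60 min at -2.41, -1.49 and -2.06. Replicate 1 at 30 min stood above all other arrays, and the 60 min arrays lay below the 6 earlier ones. Its mean at 60 min was -1.99 ± 0.37 (SE, n = 3, adjusted p = 0.000205), 3.96-fold lower than before freezing, and it passed whichever array was left out. OLE1 was also lower at 60 min than at 15 min (-2.26 ± 0.52, SE, adjusted p = 0.015; 5.77% of 1871 genes passed) and than at 30 min (-2.66 ± 0.52, SE, adjusted p = 0.0437). It was the single gene of 2457 that passed in that last comparison (0.0407%). The mean at 30 min took in the high replicate 1, and the difference without that array is not given here. MGA2, named here after its values were seen, was at -0.32, -0.41 and -1.18 at 30 min (-0.64 ± 0.29, SE, adjusted p = 0.245). At 60 min it was at -1.21 and -1.91 on the 2 arrays with a value, which were not tested. SPT23, also named after its values were seen, was at 0.24, -0.75 and -0.48 at 30 min. At 60 min SPT23 was at -0.72, -0.70 and 0.20 and did not pass (-0.41 ± 0.29, SE, adjusted p = 0.296 in limma). By the root mean square difference above, OLE1 was 449th of 1656 genes from IZH2 and 53rd from IZH4.

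Of 5 other zinc transporters, 2, 4 and 3 were tested at 15, 30 and 60 min, and 0, 1 and 1 of them passed in limma. COT1, a vacuolar transporter of cobalt and zinc, was higher at 30 min, where 2.29% of all genes were. It was at 0.66, 1.46 and 0.78 at 15 min. At 30 min its ratios were 0.95, 0.99 and 0.96, and at 60 min 0.23, 0.09 and -0.23. The 60 min arrays lay below all earlier ones. The mean at 15 min was 0.97 ± 0.27 (SE, unadjusted p = 0.00144 in limma) and did not pass (adjusted p = 0.0746). The mean at 30 min was 0.97 ± 0.27 (SE, adjusted p = 0.0393), 1.95-fold higher than before freezing. The call ended whichever array was left out (0.98, 0.95 and 0.97 without replicates 1, 2 and 3, adjusted p = 0.212, 0.174 and 0.204). That mean moved little, and calls over all genes also fell, from 144 to 28, 22 and 88.

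FET4, a low-affinity transporter of iron and zinc that is also on the list of Zap1 targets, was lower at 60 min, where 17.5% of all genes were. Its ratios there were -0.83, -0.93 and -0.89, with a mean of -0.88 ± 0.28 (SE, adjusted p = 0.0161). The 3 arrays lay close together. The call ended whichever was left out (-0.91, -0.86 and -0.88, adjusted p = 0.0629, 0.0812 and 0.0572), and on arrays scaled to 1 spread (-0.71, adjusted p = 0.0778). The mean moved little without any 1 array, and calls over all genes also fell, from 979 to 592, 586 and 847.

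Of 23 other genes that Zap1 activates, all on the arrays, 6 were tested at 15 min, where limma called 0 (1 had an unadjusted p under 0.05), 17 at 30 min with 1 higher (2.29% of all genes were), and 14 at 60 min with 3 higher and 4 lower, where 15.6% of 2952 genes were higher and 17.5% lower. With scaled arrays 2 of the 14 were higher and 0 lower in limma, beside 274 and 245 of all 2952 genes. On the second platform alone 2 of 18 were higher and 0 lower, beside 292 and 264 of 3596. The list's median was -0.33, -0.16 and -0.11, beside -0.05, -0.08 and -0.06 over all genes tested. At 60 min PIS1, the phosphatidylinositol synthase, was at 1.83, 3.00 and 1.42 (2.08 ± 0.35, SE, adjusted p = 6.59e-05), a 4.23-fold rise. It had been at -1.51, -0.13 and -0.32 at 15 min, so the groups did not overlap, and the difference between them was 2.74 ± 0.49 (SE, adjusted p = 0.0024). In that comparison 5.77% of 1871 genes passed. CTT1, a cytosolic catalase that is also a general stress gene, was at 3.30, 2.11 and 1.14 at 30 min (2.18 ± 0.39, SE, adjusted p = 0.001) and at 3.59, 2.61 and 0.99 at 60 min (2.40 ± 0.39, SE, adjusted p = 5.96e-05). PIS1 and CTT1 at 60 min passed whichever array was left out, while CTT1 at 30 min did not without replicate 1 (1.62, adjusted p = 0.119) or 2 (2.22, adjusted p = 0.106).

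The other calls of that list at 60 min did not hold under every alternative. TSA1, a peroxiredoxin, was at 1.81, 1.30 and 0.10 (1.07 ± 0.32, SE, adjusted p = 0.0132) and did not pass without replicate 1 (0.70, adjusted p = 0.201) or 2 (0.95, adjusted p = 0.0895). ADH4, an alcohol dehydrogenase and the next gene to ZRT1 in the annotation, was at -1.68, -0.71 and -0.89 (-1.09 ± 0.32, SE, adjusted p = 0.0107) and did not pass without replicate 1 (-0.80, adjusted p = 0.144). RAD27, a nuclease of DNA replication, was at -1.14, -0.86 and -0.75 (-0.92 ± 0.28, SE, adjusted p = 0.0127). Without replicates 1 and 2 in turn it was at -0.80 and -0.94 (adjusted p = 0.091 and 0.0535). RTC4 was at -1.79, -0.28 and -0.62 (-0.90 ± 0.31, SE, adjusted p = 0.0298) and did not pass without replicate 1 (-0.45, adjusted p = 0.377) or 3 (-1.03, adjusted p = 0.0537). With scaled arrays none of the 4 passed in limma: TSA1 was at 0.82 (adjusted p = 0.062), ADH4 at -0.85 (adjusted p = 0.0544), RAD27 at -0.71 (adjusted p = 0.0623) and RTC4 at -0.67 (adjusted p = 0.116). TSA1 also did not pass with array weights (0.88, adjusted p = 0.0539). RTC4 passed under 2 of 7 settings other than leaving out an array, and its adjusted p with centred arrays was 0.0594. Replicate 1, the array on the first platform, held the largest change of each of these 4 genes.

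Of 5 genes that are lowered in zinc deficiency through Zap1, 5, 3 and 5 were tested at 15, 30 and 60 min, and 3 passed, all higher at 60 min (15.6% of all genes were higher). The list's median there was 1.16, with 3 of the 5 means above 0 and 2 below. The major alcohol dehydrogenase ADH1 was at 1.64, 1.62 and 0.23 (1.16 ± 0.32, SE, adjusted p = 0.00732) and its mitochondrial relative ADH3 at 1.18, 2.11 and 0.41 (1.23 ± 0.33, SE, adjusted p = 0.00532). MET3, the ATP sulfurylase, was at 0.83, 2.03 and 1.04 (1.30 ± 0.30, SE, adjusted p = 0.00209). Without replicate 2 of 60 min 0 of the 5 passed in limma, where 267 of all 3327 genes were higher. There ADH1 was at 0.94 (adjusted p = 0.0895), ADH3 at 0.79 (adjusted p = 0.142) and MET3 at 0.94 (adjusted p = 0.0648). ADH1 also did not pass without replicate 1 (0.92, adjusted p = 0.101).

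Of 17 zinc-dependent enzymes 12, 13 and 13 were tested. In limma 0 passed at 15 min (0 with an unadjusted p under 0.05) and 0 at 30 min (1 with an unadjusted p under 0.05). At 60 min 7 were higher and 1 lower, where 15.6% of all genes were higher and 17.5% lower, and the median was 0.80, beside -0.06 over all genes tested. Beside ADH1 and ADH3, MET6, the methionine synthase, was at 0.65, 2.68 and 1.23 (1.52 ± 0.34, SE, adjusted p = 0.00145) and SOD1, the copper-zinc superoxide dismutase, at 1.99, 1.08 and 0.62 (1.23 ± 0.34, SE, adjusted p = 0.00683). ADH5, another alcohol dehydrogenase, was lower, at 0.23, -2.17 and -2.01 (-1.32 ± 0.37, SE, adjusted p = 0.00756), with the platforms on opposite sides of 0.

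The counts of enzymes passed at 60 min changed with the arrays and their scaling, as did those of all genes. Without replicate 1, 2 of 15 were higher and 3 lower, beside 310 and 282 of all 3596 genes. Without replicate 2, 2 of 14 were higher and 0 lower, beside 267 and 319 of 3327. Without replicate 3, 6 of 13 were higher and 0 lower, beside 450 and 397 of 3208. With scaled arrays 3 of 13 were higher and 1 lower, beside 274 and 245 of 2952. The median of the enzymes was 0.50, 0.75 and 0.92 without replicates 1, 2 and 3, and 0.66 with scaled arrays. MET6 did not pass without replicate 2 (0.94, adjusted p = 0.0743), SOD1 without replicate 1 (0.85, adjusted p = 0.137) or with scaled arrays (0.99, adjusted p = 0.055), and ADH5 without replicate 2 (-0.89, adjusted p = 0.143) or 3 (-0.97, adjusted p = 0.111). Probe sequences were not used here, so signal shared between close relatives, such as ADH1 and ADH2, cannot be told apart.

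**Figure D4:**
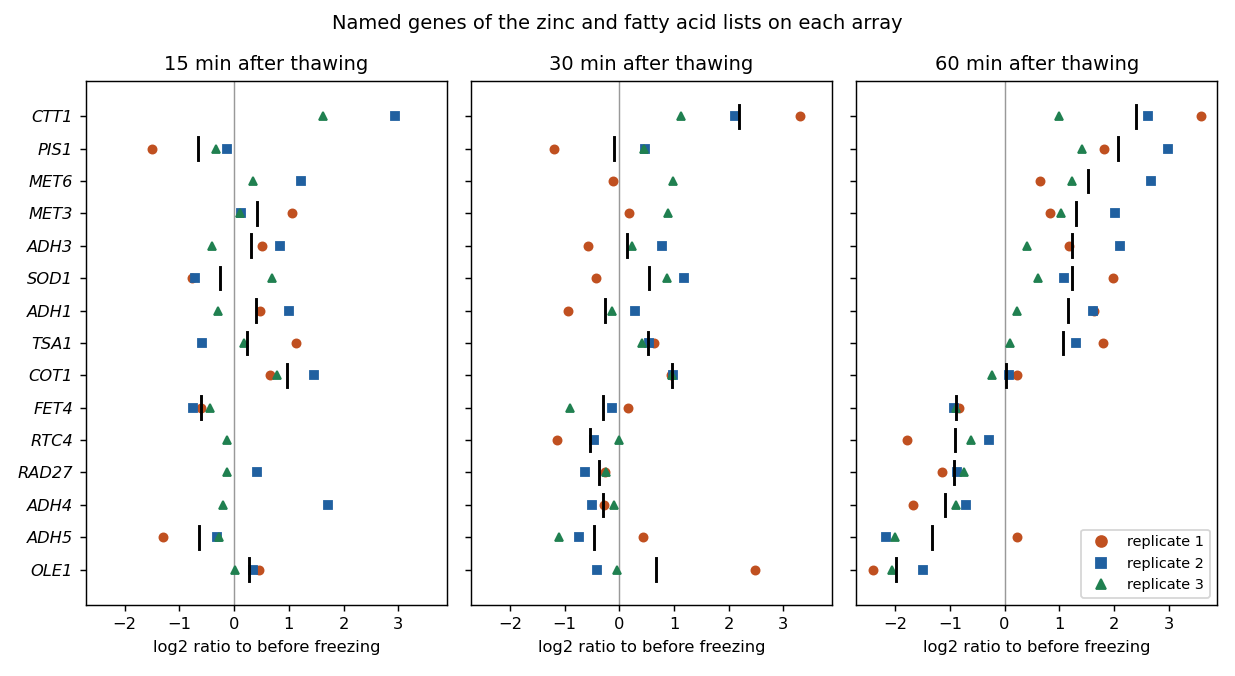
Rows are the named genes of the zinc and fatty acid lists, ordered by their mean at 60 min; the horizontal axis is the log2 ratio to cells before freezing, with 1 panel per time point, points for single arrays by replicate and black bars for means of 3 arrays. OLE1 (-1.99) is lowest and CTT1 (2.40) highest at 60 min, and COT1 is above 0 on every array at 15 and 30 min.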

How the data were processed

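The deposited values are log2 ratios of 2-channel arrays to which the authors applied LOWESS normalization within each array, using spots with flag value 0, per the labels. The sources used here do not give the scanner, the background correction or the genome build, so no positions are printed. Gene symbols came from GEO's platform annotation (5297 and 5291 of 6272 spots on the 2 platforms had 1 symbol, 0 had several), updated through RefSeq assembly R64, which 5185 of 5189 shared genes matched. Spots of 1 gene were averaged and gaps stayed empty.

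Fits across all 9 arrays used limma 3.58.1 (R 4.3.3), with a mean for each time point as the only terms. Genes entered a two-sided test where no array of the time points in question lacked a value. They passed where the p after Benjamini-Hochberg adjustment over all genes tested was under 0.05. The procedure was tested on simulated data with independent noise. That simulation held no platform, dye or shared-control effects, so it cannot speak to them. SEs are limma's and SDs are over arrays. The share of all genes whose time points did not overlap is not given here, so statements of overlap between arrays are descriptions. Whether arrays shared a control culture is not given, and testing ratios against 0 does not include the controls' own spread.

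The members and the gene lists were chosen with earlier results of these data known. List genes were named where they passed at 15 or 30 min, or were among the 3 largest passed changes of their list in each direction at 60 min, and the nearest patterns were the 3 genes of smallest root mean square difference. The 3 arrays per time point limit the precision, and p-values measure the spread between them. The alternatives were centring and scaling of arrays, array weights, single arrays left out, the second platform alone, a replicate block, 2 values per time point, only the arrays compared, and single spots.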

Additional observations from a re-analysis of the deposited data

Results flagged for a closer look

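ZRT3 was below 0 on all 3 arrays at 15 min and above 0 on all 3 at 60 min, and the means differed by 0.88. That difference was not tested, because the 60 min values were used in choosing the genes.

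OLE1 differed between 60 and 15 min (-2.26 ± 0.52, SE, adjusted p = 0.015 in limma) and between 60 and 30 min (-2.66 ± 0.52, SE, adjusted p = 0.0437 in limma), in each case with all 3 arrays at 60 min below all 3 of the earlier time. Of the 30 min arrays, replicate 1 was at 2.48 and the others at -0.41 and -0.04. The difference from 30 min without that replicate is not given here.

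PIS1 differed between 60 and 15 min by 2.74 ± 0.49 (SE, adjusted p = 0.0024 in limma), with all 3 arrays above 0 at 60 min and all 3 below 0 at 15 min. Groups of 3 arrays are too small for the test of single outlying arrays, which was not made.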

How the results depend on the processing

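The number of genes passed at 15 min was 25 (18 higher and 7 lower). It was 14 (12 higher and 2 lower) with arrays centred on their medians, 62 with arrays also scaled to 1 spread, 48 from the 15 min arrays alone, and 8 to 9 without 1 array. At 30 min it was 144, and 328 with scaled arrays, 656 with array weights, 35 on the second platform, 313 from the 30 min arrays alone, and 22 to 88 without 1 array. At 60 min it was 979, and 519 with scaled arrays, 556 on the second platform, and 586 to 847 without 1 array. The replicate block gave 161, 386 and 1230 genes at 15, 30 and 60 min. Deviations of same-numbered arrays from their time point's mean correlated at 0.02 to 0.53, all 9 above 0. Those of arrays that differed in both number and time lay between -0.61 and 0.30. Not every same-numbered pair reached 0.1 and not every array correlated best with its own number, so the numbers were not taken to pair the arrays. This does not exclude that same-numbered arrays shared a culture, and the tests between time points took no account of such sharing. Number 1 also marks the first platform. Between 30 and 15 min 0 genes passed in limma under all of these settings, with 52 at an unadjusted p under 0.05 in the fit reported. The cause of these changes was not tested.

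Of 288 values of members tested at 15 min, 30 min or between them under an alternative, 269 kept their sign and did not pass, as reported. The 5 that passed were all at 30 min: 4 values of IZH2, IZH3 and IZH4 given above, and IZH2 with the replicate block (-0.86, adjusted p = 0.0322), where 386 of all 3320 genes passed. The other 14 changed sign without passing. With single arrays left out, ZRT2 lay between -0.11 and 0.29 at 15 min and between -0.16 and 0.30 at 30 min, and ZRC1 between -0.12 and 0.28 at 30 min. Differences of 30 from 15 min lay between -0.25 and 0.0598 for IZH3, -0.0172 and 0.27 for ZRT1 and -0.27 and 0.19 for ZRT2. That of ZRT1 was also -0.0645 with array weights and -0.004 on the second platform. That of ZRT2 was also 0.093 with scaled arrays, 0.0177 with array weights and 0.14 on the second platform. At 60 min IZH2 ranged from -2.92 to -1.89 and IZH4 from -2.74 to -2.18 over 11 alternatives each. Of 16 calls of named list genes against before freezing, 3 held under every alternative run (PIS1, OLE1 and CTT1, each at 60 min).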

Other observations

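The neighbours of IZH2 and IZH4 in the annotation lay closer to 0, or above it, at 60 min. PHO80, the cyclin of the phosphate response that lies next to IZH2, was at 0.37, -0.72 and -0.24 (-0.20 ± 0.29, SE, n = 3, adjusted p = 0.635 in limma). PFA4, on its other side, was at 1.16 on 1 array. TPT1, a tRNA splicing enzyme next to IZH4, was at -0.46 and -0.43 on the 2 arrays with a value. PKH2, a kinase on the other side of IZH4, was at -0.04 on 1 array. PFA4, TPT1 and PKH2 were not tested.

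Beside ZAP1, whose 3 values were all on replicate 3, the neighbouring kinase gene IKS1 was at 1.03, 1.94 and 0.45 at 60 min (1.14 ± 0.31, SE, n = 3, adjusted p = 0.00708 in limma). At that time 15.6% of all genes were higher. LOG1, on the other side of ZAP1, was at 1.10, -0.13 and -0.35 there (0.21 ± 0.34, SE, adjusted p = 0.673 in limma). PST1, a cell wall protein on the list of Zap1 targets that had 2 values at 60 min and was not tested, was at 3.40 and 2.84 there, 8.69-fold higher on average than before freezing. Of the other genes on that list with 2 values there, ZPS1 (-0.32 and -0.86) and EKI1 (-0.84 and -0.22) were below 0 on both arrays. TEX1 was above 0 on both (0.06 and 0.66), and the rest were of mixed sign. The genes named in this section were chosen after their values were seen.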
